A study of Mus musculus with 10 samples.

Results

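Leukemia inhibitory factor (LIF) and the Jak-Stat pathway it drives were followed through 9 genes, *Lif*, *Lifr*, *Il6st*, *Jak1*, *Stat3*, *Socs2*, *Socs3*, *Pim1* and *Pim3*, among 12208 named genes that could be tested. They were chosen by name, as every probe set whose symbol in the platform's annotation is one of the 9. This gave 30 of the 45101 probe sets on the array. Of the 30 probe sets, 27 passed the filter on low signals, and at least 1 of each gene did. The 3 that did not pass were 2 of the 4 for *Stat3* and 1 of the 3 for *Pim3*.

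Affymetrix arrays of the mouse genome were hybridised with RNA of 5 sorted populations, 2 arrays for each. V6.5 iPGCs (in vitro primordial germ cells, SSEA1+ and cKit bright) and V6.5 somatic cells (negative for SSEA1 and for cKit) came from V6.5 embryonic stem cells (ESCs) of 129xBL6 F1 background. Oct4-Gfp iPGCs (reporter positive, cKit bright) and Oct4-Gfp somatic cells (negative for the reporter and for cKit) came from a line of mixed background in which green fluorescence marks transcription of *Oct4*. All iPGCs and somatic cells were sorted from embryoid bodies (EBs) at day 6. According to the study's methods, the EBs hung in drops of medium that held no LIF. The fifth population, V6.5 ESCs, was sorted undifferentiated as SSEA1+ cKit+ cells after growth on mouse embryonic fibroblasts. There were no Oct4-Gfp ESCs, so every contrast with ESCs is within or against the V6.5 line. LIF, the fibroblast layer, the day and the cell state changed together between ESCs and EB cells and cannot be told apart. Line and sorting marker cannot be told apart either.

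LIF is a secreted cytokine that joins the receptor chains LIFR and gp130, the product of *Il6st*. The joined chains activate the kinase JAK1, which phosphorylates STAT3, and dimers of STAT3 enter the nucleus and bind DNA. This pathway holds mouse ESCs in self-renewal, and among its targets are *Socs3*, whose product blocks gp130 and JAK kinases, and the survival kinases *Pim1* and *Pim3*.

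STAT dimers bind a palindrome written TTCNNNGAA, which reads the same on both strands. Promoter windows of 250 bases before the annotated start were found in RefSeq (GRCm38.p6) for 8 of the 9 genes, 10 windows in all, and 1 of the 10 held the palindrome. Over all 32851 windows of this length, 7.02% held it. The windows of the 3 genes whose main probe set fell against ESCs in both V6.5 populations are shown 5′ to 3′ on the gene's strand, with the palindrome in capitals. They lie at chr11:117969367-117969616 (minus strand) for *Socs3*, chr11:100939541-100939790 (minus strand) for *Stat3* and chr15:88861944-88862193 (plus strand) for *Pim3*.
Socs3: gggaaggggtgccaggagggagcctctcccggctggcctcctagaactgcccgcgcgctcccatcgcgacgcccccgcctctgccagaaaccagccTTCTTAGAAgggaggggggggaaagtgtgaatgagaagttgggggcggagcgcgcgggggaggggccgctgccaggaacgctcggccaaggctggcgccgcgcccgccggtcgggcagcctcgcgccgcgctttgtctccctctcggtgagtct
Stat3: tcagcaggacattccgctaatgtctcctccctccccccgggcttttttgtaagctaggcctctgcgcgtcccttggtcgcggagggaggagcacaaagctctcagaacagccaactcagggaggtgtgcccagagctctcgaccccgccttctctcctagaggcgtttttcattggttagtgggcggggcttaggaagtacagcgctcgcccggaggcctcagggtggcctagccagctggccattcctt
Pim3: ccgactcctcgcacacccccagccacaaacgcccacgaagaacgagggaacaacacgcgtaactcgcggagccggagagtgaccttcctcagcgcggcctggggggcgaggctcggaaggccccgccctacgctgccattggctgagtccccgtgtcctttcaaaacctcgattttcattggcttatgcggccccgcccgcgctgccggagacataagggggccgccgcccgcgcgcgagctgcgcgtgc
The match in *Socs3* covers bases 154 to 146 before the start. The windows of *Stat3* and *Pim3* hold no match, which says only that these letters are not in these bases.

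The deposited values are MAS5 signals, a linear measure of brightness that the authors scaled so that each array has a trimmed mean of 500. Background was set on each array at the 95th percentile of the signals of 44 olfactory receptor probe sets and lay between 12.6 and 25.4 per array. Changes are differences of log2(signal + 14.8) from limma, called at an adjusted p under 0.05 over 26372 probe sets, and each gene was represented by its brightest tested probe set. Signals of different probe sets were not set against each other. Nothing read here states that the 2 arrays of a population came from separate cultures, so each p measures the spread between these arrays alone. In each line, iPGCs exceeded somatic cells in all 5 pluripotency markers and all 6 germ cell markers, and all 5 somatic mesoderm markers were lower in iPGCs. Against V6.5 ESCs, V6.5 iPGCs had 3 of 6 germ cell markers higher and 0 of 5 pluripotency markers called. Of all genes tested, 17.3% were higher and 12.8% lower in that contrast. Also, 3 of the 5 somatic mesoderm markers were higher than in ESCs, with a summed signal of 850 to 878 in V6.5 iPGCs and 118 to 176 in V6.5 ESCs.

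The feedback inhibitor and STAT3 itself carried the largest changes in V6.5 iPGCs. There, *Socs3* and *Stat3* were far below their level in V6.5 ESCs, *Pim3* was lower by less, and the receptor chain *Il6st* was higher. Of the 9 genes, 1 rose and 3 fell in V6.5 iPGCs against V6.5 ESCs, where 17.3% of all genes tested rose and 12.8% fell. At the study's own threshold of 3-fold and an unadjusted p under 0.01, 2 of the 9 changed, against 4.26% of all genes. In V6.5 somatic cells against V6.5 ESCs, 2 of the 9 rose and 5 fell, where 30.2% of all genes rose and 31.7% fell. At 3-fold and p under 0.01, 1 of the 9 changed in that contrast, against 20.2% of all genes. The median change of the 9 genes was 0.20 in V6.5 iPGCs and -0.61 in V6.5 somatic cells, while that of all genes was 0.05 and -0.04 in the same contrasts.

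**Figure D1:**
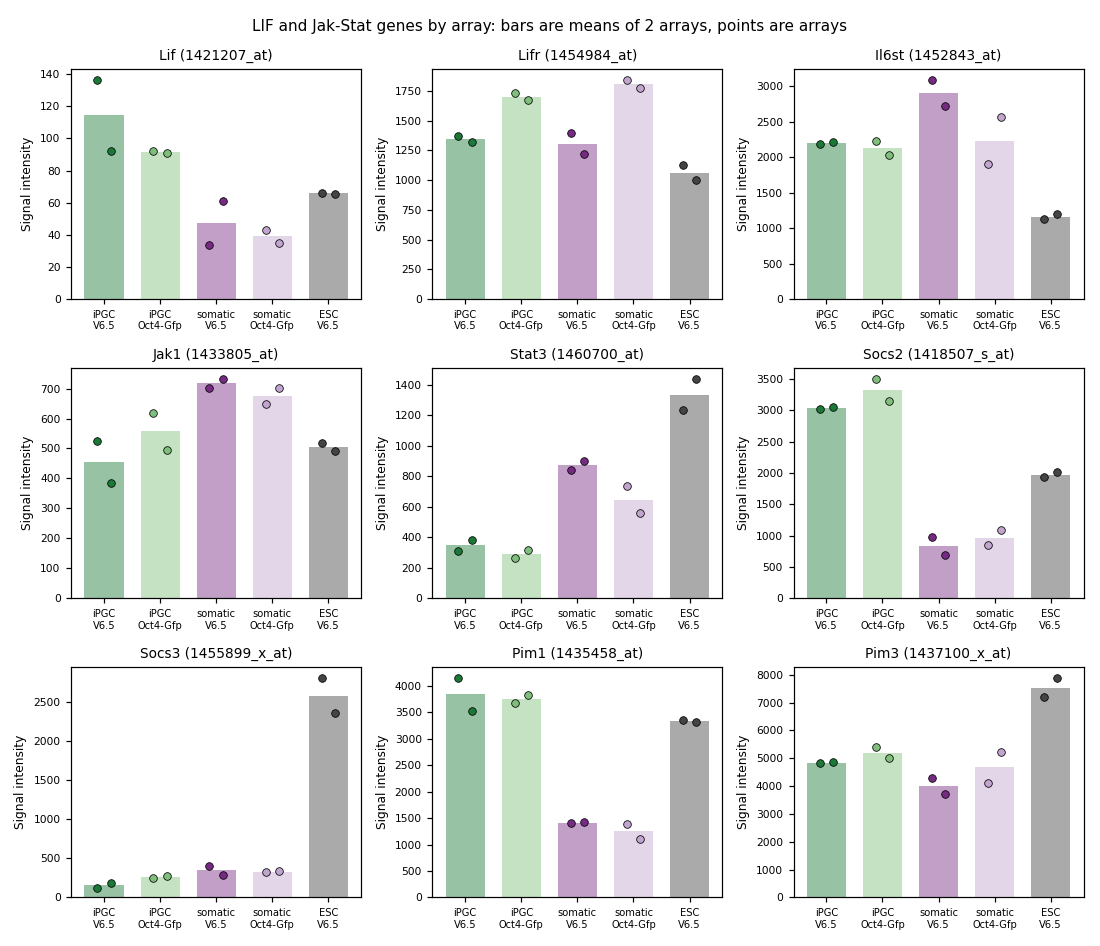
Signal intensity (linear axis from 0) of the main probe set of each gene, 1 panel per gene, with bars for the mean of 2 arrays and points for the arrays. Populations run from V6.5 iPGCs on the left to V6.5 ESCs on the right. *Socs3* stood between 119 and 402 on the 8 EB arrays and at 2804 and 2352 in V6.5 ESCs, and *Stat3* was lowest in both iPGC populations.

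*Socs3*, the inhibitor that STAT3 induces, had signals of 119 and 189 in V6.5 iPGCs, 249.6 and 269 in the Oct4-Gfp iPGCs, 402 and 292 in V6.5 somatic cells, 327 and 332 in Oct4-Gfp somatic cells, and 2804 and 2352 in V6.5 ESCs. Both ESC arrays stood far above all 8 EB arrays. The difference was -3.97 ± 0.23 (log2, SE) between V6.5 iPGCs and V6.5 ESCs, a 15.6-fold lower signal (adjusted p = 0.000208 from limma, n = 2 each). Between V6.5 somatic cells and V6.5 ESCs it was -2.85 ± 0.23, a 7.23-fold lower signal (adjusted p = 3.47e-05 from limma). All 3 probe sets of *Socs3* fell in both contrasts, with changes of -4.26 to -3.76 in V6.5 iPGCs and -3.44 to -2.81 in V6.5 somatic cells. Ordered by mean signal, *Socs3* was lowest in V6.5 iPGCs (154), followed by Oct4-Gfp iPGCs (259), Oct4-Gfp somatic cells (329), V6.5 somatic cells (347) and V6.5 ESCs (2578). Of the neighbours in this order, only V6.5 somatic cells against V6.5 ESCs passed an adjusted p under 0.05. In bulk RNA, fewer cells that make a transcript and less of it per cell cannot be told apart.

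Summed signals of 3 marker lists were also lower in V6.5 iPGCs than in V6.5 ESCs. The sums cover every listed gene, tested or not: 5 pluripotency, 10 immediate early and dissociation response, and 12 fibroblast genes. The pluripotency list, with none of its 5 genes called, summed to 24094 to 25198 in V6.5 iPGCs and 28778 to 29003 in V6.5 ESCs. Its genes went different ways by mean signal in V6.5 iPGCs against V6.5 ESCs. *Pou5f1* (3599 against 5920) and *Esrrb* (3449 against 5767) were lower, and *Nanog* had 6350 against 6572. *Sox2* (5677 against 5275) and *Zfp42* (5571 against 5357) were slightly higher. Of 9 tested immediate early and dissociation response genes, 1 was higher and 5 were lower in V6.5 iPGCs than in V6.5 ESCs. The list had a summed signal of 8186 to 8403 in V6.5 iPGCs, 10193 to 12188 in V6.5 somatic cells and 12522 to 13432 in V6.5 ESCs. Of 9 tested fibroblast genes, 2 were higher and 4 lower in V6.5 iPGCs than in V6.5 ESCs. The list had a summed signal of 812 to 815 in V6.5 iPGCs and 1068 to 1303 in V6.5 ESCs. Over all genes tested, 17.3% were higher and 12.8% lower in this contrast. In V6.5 somatic cells the same fibroblast list summed to 15875 to 16122. There, 6 of its 9 tested genes were higher and 2 lower than in ESCs, where 30.2% of all genes were higher and 31.7% lower. The 4 fibroblast genes that were lower in V6.5 iPGCs were *Lox* (4.77 and 4.53 in V6.5 iPGCs, 127 and 199 in V6.5 ESCs), *S100a4* (23.1 and 33.8 in iPGCs, 96.5 and 181 in ESCs), *Thy1* (234 and 141 in iPGCs, 447 and 424 in ESCs) and *Col1a2* (54.1 and 12.6 in iPGCs, 84.5 and 110.3 in ESCs). The 2 that were higher were *Col1a1* (347 and 461 in iPGCs, 119 and 149 in ESCs) and *Twist2* (35.5 and 18.5 in iPGCs, 3.98 and 3.09 in ESCs). *Twist2* was below background on both ESC arrays and the second V6.5 iPGC array. *Lox* was below it on both V6.5 iPGC arrays and *Col1a2* on the second. The folds of these genes are thus not reliable. *Lox* passed the filter on the ESC arrays alone and *Twist2* on somatic arrays alone. The *Gapdh* control probe sets at the 3' and 5' ends of the transcript give a ratio that grows with RNA degradation, and it was 1.51 and 1.63 in V6.5 iPGCs, 2.02 and 2.37 in the Oct4-Gfp iPGCs, 1.74 and 1.73 in V6.5 somatic cells, 1.65 and 2.05 in Oct4-Gfp somatic cells, and 1.30 and 1.28 in V6.5 ESCs. The part of dissociation, feeder cells and RNA quality in the changes of the 9 genes was not tested.

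*Stat3*, the transcription factor of the pathway, had signals of 312 and 380.2 in V6.5 iPGCs, 267 and 315 in the Oct4-Gfp iPGCs, 842 and 898 in V6.5 somatic cells, 735 and 559.5 in Oct4-Gfp somatic cells, and 1232 and 1439 in V6.5 ESCs. All 4 iPGC arrays lay below all 4 somatic arrays, and these below both ESC arrays. The change was -1.91 ± 0.18 in V6.5 iPGCs against V6.5 ESCs (log2, SE), or 3.75-fold lower (adjusted p = 0.000823 from limma). In V6.5 somatic cells against V6.5 ESCs it was -0.61 ± 0.18 (adjusted p = 0.0226 from limma). Leaving out the second ESC array or either V6.5 somatic array raised the adjusted p of that somatic difference to 0.124, 0.103 and 0.0639. A second probe set for *Stat3* (1426587_a_at) fell by 2.42 in V6.5 iPGCs and by 0.88 in V6.5 somatic cells, both called. The other 2 probe sets of *Stat3* had signals of 6.11 to 66.7 over all arrays.

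*Socs2*, a relative of *Socs3* that also restrains cytokine and growth hormone signalling, had a different pattern. Its signals were 3018 and 3055 in V6.5 iPGCs, 3507 and 3144 in the Oct4-Gfp iPGCs, 982 and 692 in V6.5 somatic cells, 844 and 1089 in Oct4-Gfp somatic cells, and 1933 and 2021 in V6.5 ESCs. It was thus highest on the iPGC arrays and lowest on the somatic arrays, with no overlap between cell types. Against V6.5 ESCs the change in V6.5 iPGCs was 0.62 ± 0.20 (95% interval 0.16 to 1.07, adjusted p = 0.0509 from limma), just short of a call, and in the alternatives that did call it the adjusted p was 0.0135 to 0.0469. In V6.5 somatic cells *Socs2* fell by 1.25 ± 0.20 on the log2 scale (adjusted p = 0.000997 from limma). Its 6 probe sets disagreed for iPGCs against ESCs, since 1446085_at rose (1.71, adjusted p = 0.00339 from limma) and the other 5 ranged from -0.17 to 0.96, none called. Probe set 1446085_at passed the filter on 5 arrays, all those of iPGCs and the second of ESCs, so its call is not counted as support.

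*Pim1* and *Pim3* encode related survival kinases. *Pim1* had signals of 4148 and 3527 in V6.5 iPGCs, 3665 and 3822 in the Oct4-Gfp iPGCs, 1399 and 1433 in V6.5 somatic cells, 1395 and 1098 in Oct4-Gfp somatic cells, and 3346 and 3325 in V6.5 ESCs. The iPGC and ESC arrays lay well above the somatic arrays. In V6.5 iPGCs against V6.5 ESCs *Pim1* changed by 0.20 ± 0.15 (95% interval -0.16 to 0.55, adjusted p = 0.368 from limma), and in V6.5 somatic cells against V6.5 ESCs it fell by 1.23 ± 0.15 (adjusted p = 0.000318 from limma). Its dimmer probe set, 1423006_at, had changes of -0.31 (not called) and -1.92 (called) in the same contrasts. *Pim3* had signals of 4811 and 4873 in V6.5 iPGCs, 5390.1 and 5016 in the Oct4-Gfp iPGCs, 4297 and 3699 in V6.5 somatic cells, 4118 and 5225 in Oct4-Gfp somatic cells, and 7196 and 7884 in V6.5 ESCs. All 8 EB arrays were below both ESC arrays, and the iPGC and somatic arrays of the Oct4-Gfp line overlapped. *Pim3* fell by 0.64 ± 0.16 in V6.5 iPGCs (adjusted p = 0.0221 from limma) and by 0.92 ± 0.16 in V6.5 somatic cells (adjusted p = 0.00161 from limma). Without any 1 of the 4 arrays in the V6.5 iPGC contrast the adjusted p of *Pim3* lay between 0.0613 and 0.117. Its second tested probe set, 1451069_at, fell by 1.06 and 1.46 in the same contrasts.

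The receptor chains had signals in EB cells at or above those in ESCs at their brightest probe sets. *Il6st*, which encodes gp130, had signals of 2189 and 2213 in V6.5 iPGCs, 2226 and 2026 in the Oct4-Gfp iPGCs, 3095 and 2723 in V6.5 somatic cells, 1905 and 2560.3 in Oct4-Gfp somatic cells, and 1132 and 1193 in V6.5 ESCs. All 8 EB arrays exceeded both ESC arrays. *Il6st* rose by 0.91 ± 0.17 in V6.5 iPGCs (adjusted p = 0.00726 from limma) and by 1.31 ± 0.17 in V6.5 somatic cells (adjusted p = 0.000334 from limma). The other 3 probe sets of *Il6st* were called higher in V6.5 somatic cells (0.58 to 0.85), whereas in V6.5 iPGCs they had changes of 0.13 to 0.67, none called. In the Oct4-Gfp line 1460295_s_at had 509 and 409.6 in the Oct4-Gfp iPGCs, 586 and 544 in Oct4-Gfp somatic cells, and 669 and 691 in V6.5 ESCs, so there the sign of the *Il6st* difference from ESCs depends on the probe set. *Lifr*, the chain specific to LIF and its closest relatives, had signals of 1369 and 1318 in V6.5 iPGCs, 1729 and 1675 in the Oct4-Gfp iPGCs, 1394 and 1219 in V6.5 somatic cells, 1846 and 1776 in Oct4-Gfp somatic cells, and 1125 and 1002 in V6.5 ESCs. Its arrays in EB cells lay above both ESC arrays, but its change was 0.33 ± 0.13 in V6.5 iPGCs (95% interval 0.03 to 0.64, adjusted p = 0.0944 from limma) and 0.29 ± 0.13 in V6.5 somatic cells (95% interval -0.01 to 0.60, adjusted p = 0.0915 from limma). With the means of both lines set against V6.5 ESCs, the changes of this probe set were 0.50 (adjusted p = 0.00991 from limma) in iPGCs and 0.53 (adjusted p = 0.00427 from limma) in somatic cells. The other 2 probe sets of *Lifr* had changes of the opposite sign, -0.43 to -0.31 in V6.5 cells, none called, so the sign of the *Lifr* change against ESCs depends on the probe set.

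**Figure D2:**
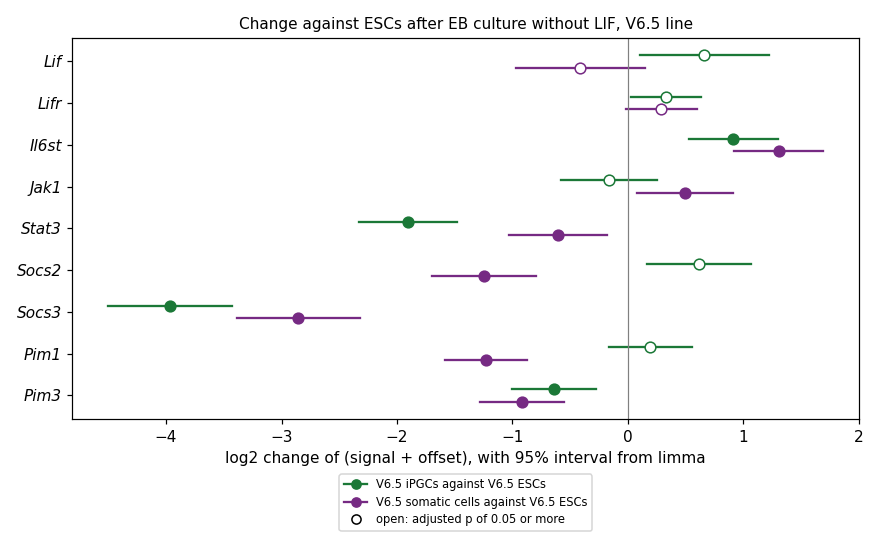
Change against V6.5 ESCs (log2 of signal + offset, horizontal axis) of the main probe set of each gene, for V6.5 iPGCs (green) and V6.5 somatic cells (purple), with 95% intervals. Filled points passed an adjusted p under 0.05. *Socs3* lies at -3.97 and -2.85, *Il6st* at 0.91 and 1.31, and *Socs2* and *Pim1* lie on opposite sides of 0 in the 2 populations.

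*Jak1*, the kinase that phosphorylates STAT3 at the receptor, had signals of 525 and 383 in V6.5 iPGCs, 619.6 and 495 in the Oct4-Gfp iPGCs, 703 and 733 in V6.5 somatic cells, 648 and 703 in Oct4-Gfp somatic cells, and 517 and 491 in V6.5 ESCs. The iPGC arrays overlapped the ESC arrays, and all 4 somatic arrays lay above both. Its change was -0.16 ± 0.18 in V6.5 iPGCs (adjusted p = 0.53 from limma) and 0.50 ± 0.18 in V6.5 somatic cells (adjusted p = 0.0446 from limma), a call that was lost without either ESC array, either V6.5 somatic array or either Oct4-Gfp somatic array (adjusted p of 0.0572 to 0.155). A second probe set, 1433804_at, fell by 0.91 in V6.5 iPGCs (adjusted p = 0.00895 from limma) and had -0.21 in V6.5 somatic cells, not called, and the remaining one, 1433803_at, was not called in either (-0.19 and -0.21). *Lif*, the ligand, was dim, with signals of 137 and 92.4 in V6.5 iPGCs, 92.1 and 91.0 in the Oct4-Gfp iPGCs, 33.5 and 61.3 in V6.5 somatic cells, 42.8 and 35.2 in Oct4-Gfp somatic cells, and 66.1 and 65.4 in V6.5 ESCs. All 4 iPGC arrays lay above both ESC arrays and all 4 somatic arrays below them. Neither change against V6.5 ESCs was called, at 0.66 ± 0.24 in V6.5 iPGCs (adjusted p = 0.0764 from limma) and -0.41 ± 0.24 in V6.5 somatic cells (adjusted p = 0.18 from limma). At the second probe set of *Lif*, 1450160_at, the changes were -0.09 (not called) and -1.08 (adjusted p = 0.0254 from limma).

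Both EB populations had been without added LIF, so the contrast of iPGCs with somatic cells was made within that culture condition. In the V6.5 line 3 of the 9 genes were higher in iPGCs than in the somatic sort and 3 were lower, where 27.2% of all genes were higher and 24.1% lower. In the Oct4-Gfp line 3 were higher and 1 was lower, where 25.7% and 24.7% of all genes were. The higher genes include *Lif* in each line. Its main probe set passed the filter on no somatic array, so its call is not counted as support. At 3-fold and p under 0.01, 1 of the 9 genes, *Socs2*, differed in each line, against 16.5% of all genes (V6.5) and 15.4% (Oct4-Gfp). *Pim1* narrowly missed this cut in the Oct4-Gfp line, at 2.99996-fold (unadjusted p = 7.6e-06 from limma). The median change of the 9 genes was 0.04 for V6.5 and -0.06 for Oct4-Gfp, while that of all genes was 0.08 and 0.04.

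*Socs2* was higher in iPGCs by 1.86 ± 0.20 in the V6.5 line (adjusted p = 0.000173 from limma) and by 1.78 ± 0.20 in the Oct4-Gfp line (adjusted p = 0.000228 from limma). *Pim1* was higher by 1.42 ± 0.15 (adjusted p = 0.0002 from limma) and 1.58 ± 0.15 (adjusted p = 0.000121 from limma) in the same lines. *Lif* was higher by 1.07 ± 0.24 (adjusted p = 0.00781 from limma) and 0.99 ± 0.24 (adjusted p = 0.0112 from limma). The inhibitor *Socs2* and the kinase *Pim1* were thus above the somatic level in iPGCs of both lines. All 6 probe sets of *Socs2* were called higher in V6.5 iPGCs and 4 of the 6 in Oct4-Gfp iPGCs. The second probe set of *Lif* was called in the V6.5 line (0.99) and not in the Oct4-Gfp line (0.35). Of these, 1442586_at passed the filter on 3 arrays, all from iPGCs. Probe set 1438470_at passed on 6 arrays, 1446085_at and the main probe set of *Lif* on 5, and the second of *Lif* on 2, none of them somatic. The filter let these in through cells where they were high, so their calls are not counted as support. Apart from these, *Socs2* was called higher at 1418507_s_at and 1449109_at in both lines and at 1441476_at in the V6.5 line. Without the second Oct4-Gfp iPGC array or the second Oct4-Gfp somatic array the adjusted p of *Lif* in that line was 0.0502 and 0.0576. *Stat3* was lower by 1.30 ± 0.18 in V6.5 iPGCs (adjusted p = 0.000779 from limma) and by 1.11 ± 0.18 in Oct4-Gfp iPGCs (adjusted p = 0.00177 from limma). Its second tested probe set fell by 1.54 in the V6.5 line and had -0.70 in the Oct4-Gfp line (adjusted p = 0.0517 from limma).

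*Socs3* fell by 1.11 ± 0.23 in V6.5 iPGCs against V6.5 somatic cells (adjusted p = 0.00536 from limma), and in the Oct4-Gfp line its change was -0.33 ± 0.23 (95% interval -0.86 to 0.20, adjusted p = 0.272 from limma). The difference between the lines, Oct4-Gfp minus V6.5, was 0.78 ± 0.33 for *Socs3* (adjusted p = 0.465 from limma), so the lines were not shown to differ. *Jak1* was lower by 0.66 ± 0.18 in V6.5 iPGCs (adjusted p = 0.0182 from limma) and had -0.28 ± 0.18 in Oct4-Gfp iPGCs (adjusted p = 0.237 from limma). Without the second V6.5 iPGC array or either V6.5 somatic array the adjusted p of *Jak1* in the V6.5 line was 0.0974, 0.0668 and 0.0834. Its probe set 1433804_at fell by 0.70 and 0.68 in the V6.5 and Oct4-Gfp lines (adjusted p = 0.0124 and 0.0137 from limma). The remaining one, 1433803_at, had 0.02 and 0.18, neither called, so a lower *Jak1* in iPGCs was not seen at every probe set. *Lifr*, *Il6st* and *Pim3* were not called in either line at their main probe set, with changes of 0.04, -0.40 and 0.28 in the V6.5 line and -0.09, -0.06 and 0.16 in the Oct4-Gfp line. Both dimmer probe sets of *Lifr* were called lower in Oct4-Gfp iPGCs (-0.58 and -0.64, adjusted p = 0.0457 and 0.0442 from limma). For *Il6st*, 1460295_s_at was called lower in V6.5 iPGCs than in V6.5 somatic cells (-0.45, adjusted p = 0.0383 from limma), and the main probe set was called in 3 alternatives (adjusted p of 0.0325 to 0.0453).

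**Figure D3:**
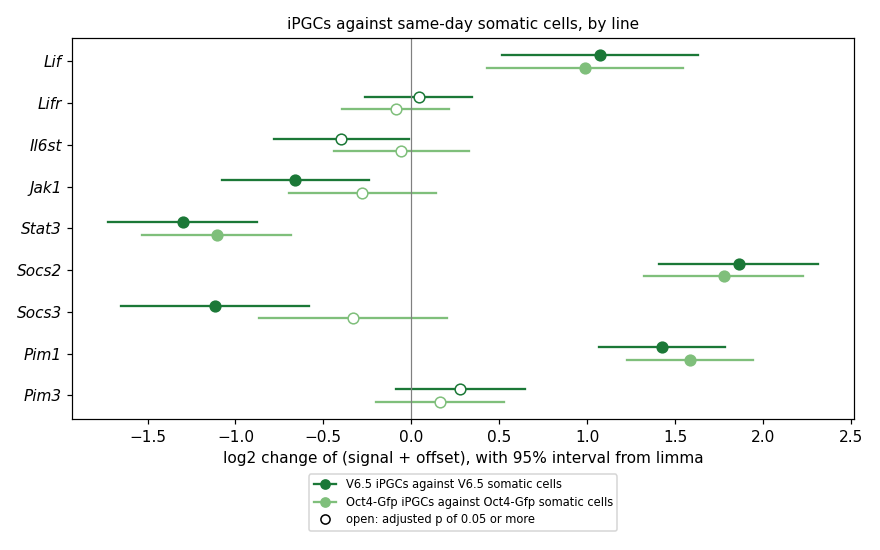
Change of iPGCs against somatic cells of the same line (log2 of signal + offset, horizontal axis) for the main probe set of each gene, with 95% intervals, V6.5 in dark green and Oct4-Gfp in light green. Filled points passed an adjusted p under 0.05. *Socs2*, *Pim1* and *Lif* lie right of 0 and *Stat3* left of 0 in both lines. The probe set of *Lif* passed the filter on no somatic array.

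The lines were compared directly as well. None of the 9 genes was called by limma for a difference between lines in the contrast of iPGCs with somatic cells, where 0% of all genes were called higher and 0.00819% lower, and 1 of the 9 had an unadjusted p under 0.05. None was called between Oct4-Gfp iPGCs and V6.5 iPGCs (0% of all genes higher and 0% lower), with 2 at an unadjusted p under 0.05. None was called between Oct4-Gfp somatic cells and V6.5 somatic cells (0.0328% higher and 0.041% lower), with 3 at an unadjusted p under 0.05. At 3-fold and p under 0.01 none of the 9 was called in these contrasts, against 0.41%, 0.147% and 0.172% of all genes in the order given. At its brightest probe set *Lifr* was higher on both Oct4-Gfp arrays than on both V6.5 arrays in iPGCs (0.34 ± 0.13, adjusted p = 0.204 from limma) and in somatic cells (0.47 ± 0.13, adjusted p = 0.249 from limma). The dimmer probe sets 1425107_a_at and 1450207_at had -0.54 and -0.36 between the lines in iPGCs, and 0.03 and 0.15 in somatic cells, none called.

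**Figure D4:**
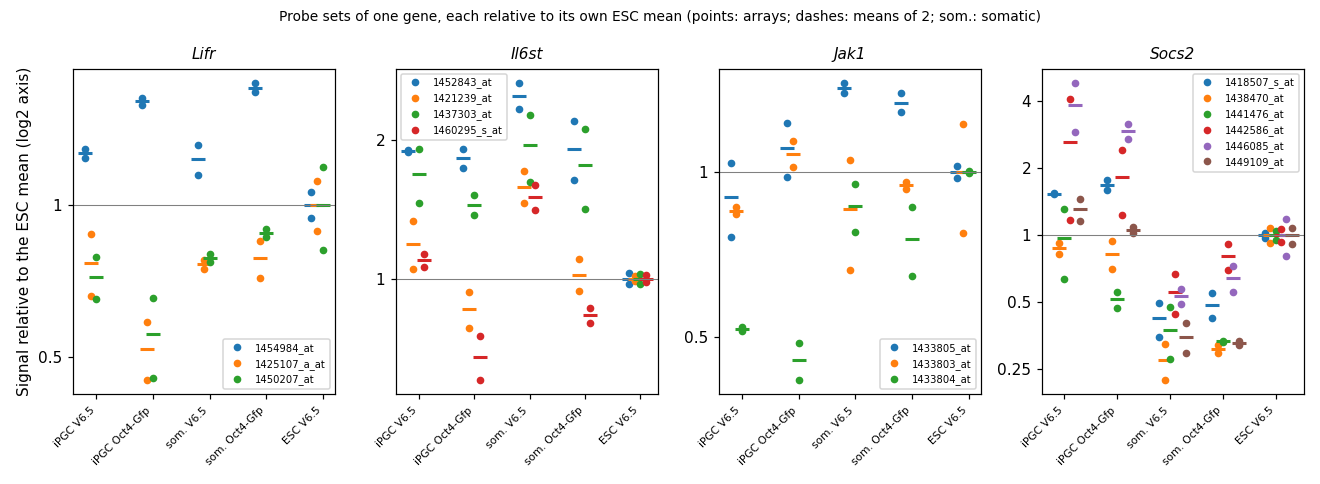
Signal of each tested probe set of *Lifr*, *Il6st*, *Jak1* and *Socs2* divided by its own mean in V6.5 ESCs (log2 vertical axis), with points for arrays and dashes for means of 2. The brightest *Lifr* probe set, 1454984_at, lies above 1 in all EB cells and the other 2 lie below it, and the *Jak1* probe set 1433804_at lies below 1 in both iPGC populations.

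Of 43 other genes of the pathway, 31 had a tested probe set. In V6.5 iPGCs against V6.5 ESCs, 3 of the 31 rose and 10 fell, with a median change of -0.20, where 17.3% of all genes rose and 12.8% fell. In V6.5 somatic cells against V6.5 ESCs, 10 rose and 16 fell, with a median of -0.51, where 30.2% of all genes rose and 31.7% fell. In iPGCs against somatic cells, 13 were higher and 10 lower in the V6.5 line, where 27.2% of all genes were higher and 24.1% lower. In the Oct4-Gfp line 11 were higher and 9 lower, where 25.7% and 24.7% of all genes were. The medians were 0.20 (V6.5) and 0.14 (Oct4-Gfp).

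Among these, 7 genes are known targets of LIF or STAT3 in ESCs, and 6 of the 7 were lower in V6.5 iPGCs than in V6.5 ESCs, where 12.8% of all genes were. In V6.5 somatic cells against V6.5 ESCs, 5 of the 7 were lower and 1 was higher, where 31.7% and 30.2% of all genes were. In each line 4 of the 7 were higher and 1 was lower in iPGCs than in the somatic sort. Of all genes, 27.2% were higher and 24.1% lower in the V6.5 line, and 25.7% and 24.7% in the Oct4-Gfp line. *Bcl3*, a co-regulator of NF-kB, had signals of 143 and 139.6 in V6.5 iPGCs, 134 and 192 in V6.5 somatic cells, and 929 and 948 in V6.5 ESCs. *Klf4*, a pluripotency factor, had 1671 and 1697 in V6.5 iPGCs, 513 and 325 in V6.5 somatic cells, and 4456 and 4386 in V6.5 ESCs. *Tfcp2l1*, a transcription factor that sustains self-renewal, had 1738 and 1454 in V6.5 iPGCs, 37.5 and 40.6 in V6.5 somatic cells, and 3307 and 2948 in V6.5 ESCs. *Bcl3* was low in both EB populations, while *Klf4* and *Tfcp2l1* stood between somatic cells and ESCs in iPGCs. The changes in V6.5 iPGCs against V6.5 ESCs were -2.61 for *Bcl3*, -1.38 for *Klf4* and -0.97 for *Tfcp2l1* (adjusted p = 0.000516, 0.0222 and 0.00474 from limma). *Klf5* and *Gbx2* fell as well, and *Junb* was not called. *Myc*, which drives growth and proliferation, fell by 0.82 in V6.5 iPGCs (adjusted p = 0.0206 from limma) and rose by 2.10 in V6.5 somatic cells (adjusted p = 7.6e-05 from limma).

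Of the families around the 9 genes, members that passed in V6.5 iPGCs were picked out after their values were seen, as *Klf5*, *Gbx2*, *Junb* and *Myc* were. *Jak2*, a kinase that serves many cytokine receptors, had signals of 475 and 322 in V6.5 iPGCs, 1052 and 828 in V6.5 somatic cells, and 175 and 164 in V6.5 ESCs, and it rose by 1.14 in V6.5 iPGCs (adjusted p = 0.00645 from limma). Of 5 other STAT factors, 2 fell in V6.5 iPGCs against V6.5 ESCs, *Stat5a* by 0.93 and *Stat6* by 0.88 (adjusted p = 0.00837 and 0.0133 from limma). Of 5 other SOCS family genes, *Socs7* rose by 0.78 and *Cish*, a target of STAT5 in other cells, fell by 1.14 (adjusted p = 0.00663 and 0.0137 from limma). In the same contrast, 1 of 4 PIAS inhibitor genes fell and 1 of 3 phosphatase genes rose. Over all genes tested, 17.3% rose and 12.8% fell in V6.5 iPGCs against V6.5 ESCs.

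The genes whose log2 signal followed that of a member most closely over the 10 arrays were listed as a description, with no test, since the points share their populations. For *Socs3* they were *Snhg10* (Pearson r = 0.983), *Prpf8* (0.969), *Chac1* (0.967) and *Lox* (0.965). *Lox* is a fibroblast gene of the list above, with a mean signal of 4.65 in V6.5 iPGCs, 16.1 in V6.5 somatic cells and 163 in V6.5 ESCs. Its signal exceeded background on 2 of the 10 arrays, both of ESCs. For *Stat3* they were *Zfp369* (0.988), *Ppt2* (0.981), *Ppp1r3c* (0.981) and *Slc2a1* (0.979). For *Lifr*, at its brightest probe set, they were *Birc6* (0.970), *Smchd1* (0.957), *Pan3* (0.951) and *Cep164* (0.949).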

How the data were processed

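Values were signal intensity on a linear scale, deposited by the authors, and the submitters' processing notes name MAS5 without a version. Each array has a trimmed mean of 500, with 2% left out at each end. The study's methods name D-Chip, and D-Chip values were not used here. RNA had been amplified before labelling.

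From the deposited intensity, 64 control probe sets were left out, the 25th percentile of the table (14.8) was added, and log2 was taken. A probe set was tested if its signal exceeded the array median on 2 or more arrays (26372 of 45101). Symbols came from the platform annotation: 34958 probe sets have 1, 932 several and 9211 none. One limma 3.58.1 model in R 4.3.3 held the 5 groups (5 residual and 2.92 prior degrees of freedom), with Benjamini-Hochberg adjustment over all probe sets tested. A gene was represented by its tested probe set with the highest mean log2 value. Counts over genes use 12208 genes. Named were the 9 genes, up to 4 of each wider list, and the 4 genes most correlated with *Socs3*, *Stat3* and *Lifr*. The members, lists and tests were chosen with earlier results of these data known. Further genes of the wider list, and the fibroblast genes, were named after their values were seen. Alternatives were other offsets, filters, scalings and weights, limma-trend, the replicate number as a block, the mean of both lines, the study's threshold, and each array left out. The number of arrays limits the precision. Promoters came from RefSeq, and plots were drawn with matplotlib 3.10.9.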

Additional observations from a re-analysis of the deposited data

How the results depend on the processing

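Counts of the 9 genes called stayed within 1.5 times the reported count under other offsets, filters, scalings, weights, limma-trend and the mean of both lines. Under the study's threshold of 3-fold and an unadjusted p under 0.01 they were 2 in V6.5 iPGCs against V6.5 ESCs, 1 in V6.5 somatic cells against V6.5 ESCs, 1 in V6.5 iPGCs against V6.5 somatic cells and 1 in the same contrast of the Oct4-Gfp line, since that rule leaves out smaller changes. With each array left out in turn the counts were 3 to 6, 5 to 7, 5 to 7 and 3 to 4 in those contrasts, and 0 to 0 in the 3 contrasts between lines. No called gene changed direction. Over the alternatives, genes called in the main fit kept the call in 391 cases and lost it in 23. Genes not called there gained a call in 16 cases, and cases that stayed uncalled were not counted. The calls that were lost were those of *Pim3* and *Jak1* and of *Stat3* against ESCs in V6.5 somatic cells, and of *Lif* in the Oct4-Gfp line. *Pim3* in V6.5 iPGCs against V6.5 ESCs had an adjusted p of 0.0512 with no filter and 0.0726 after quantile normalization, and *Jak1* in V6.5 somatic cells against V6.5 ESCs had 0.0833, 0.139 and, with median centring, 0.185. The cause was not tested. With the stricter filter *Lif* was not tested. Median centring moved the median change of all probe sets by 0.26 in Oct4-Gfp iPGCs against Oct4-Gfp somatic cells and by -0.19 in V6.5 somatic cells against V6.5 ESCs. Deviations of arrays with 1 replicate number correlated at -0.29 to 0.26 over 10 pairs of groups. With 2 arrays in a population this cannot tell whether arrays of 1 number shared a culture, so pairing stays unknown. With the number as a replicate block the counts were 4, 7, 6 and 4, and 0 between lines.

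With 2 arrays in a population the error of a change rests on the spread pooled over all 5. Signals near the background of 12.6 to 25.4 have no reliable fold, which touches *Lif* and the probe sets of *Stat3* and *Pim3* that were not tested. Of the fibroblast genes named, it touches *Lox*, *Twist2* and *Col1a2*.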
